A study of Mus musculus with 2 samples.

Results

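Regulatory T (Treg) cells are CD4 T cells that restrain immune responses, and 9 genes used to recognise them were read out in cultured mouse T helper 17 (Th17) cells. The genes were taken by symbol: Foxp3, Ikzf2, Ikzf4, Nrp1, Gpr83, Lrrc32, Capg, Swap70 and Klrg1. They are 9 of the 15574 genes with at least 1 read, and a gene without a row in a library was taken as 0 reads there. Th17 cells make the cytokine IL-17, and both lineages can arise from naive CD4 T cells that receive TGF-beta, with IL-6 favouring Th17 cells. FOXP3 is the transcription factor that defines Treg cells. Several of the other genes are also used by activated or effector T cells, so their RNA alone does not name a Treg cell.

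The study has 1 library labelled CREB KO and 1 wildtype library, both of C57BL/6 background. CREB is the transcription factor that cyclic AMP signalling switches on, Creb1 is its gene, and the series' title asks how it bears on the Th17 and Treg programs. Naive T cells of each genotype were kept for 6 days with IL6, TGFb, IL1b and IL23 and then given plate-bound CD3 for 4 h, which stimulates the T cell receptor. Both groups therefore share the cytokines and the stimulation, and neither was a Treg culture. How CREB was removed, and how many animals or cultures went into a library, is not stated in the labels. With 1 library per genotype there is no replicate error and hence no p-value, and each ratio compares 2 libraries, not 2 genotypes.

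The KO-labelled library held 23938112 counted reads and the wildtype library 26525471. The targeted gene did not bear out the knockout label: Creb1 (chromosome 1, 64532645 to 64604548, GRCm38) counted 25 reads in the KO-labelled library and 13 in the wildtype library, 2.08-fold more by ratio (1.04 to 4.51). The labels do not say which part of the gene was deleted, and the gene was barely counted in either library, at 1.04 and 0.491 CPM with 3 curated RefSeq transcripts, so these reads check the label only in part. The library is called KO-labelled below for that reason. Of 12 T cell and Th17 genes 11 were expressed, with Cd3e at 10434 and 11102 reads and Il17a, the gene of the cytokine IL-17A, at 6981 and 13093, while Il22 (40 and 55), Ccr6 (58 and 79) and Il1r1 (0 and 3) were low. Intervals of the KO-labelled library over wildtype lay below 1 for 7 of the 11, against a background of 19.5% of all expressed genes, with Il17f lowest at 2.78-fold lower (2.72 to 2.83). The part of this shift in the ratios below was not tested. Ratios in this text are levels in the KO-labelled library over wildtype, and the range in brackets is an exact conditional binomial 95% interval. Levels are in CPM, which are counts per 1000000 reads of the scaled library size. Intervals cover counting error only, and reads copied by PCR are not independent molecules.

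Of the 9 genes, 7 were expressed at a mean of 1 CPM or more, and Foxp3 and Klrg1 were not. Among the 7, Gpr83, Nrp1, Ikzf4 and Lrrc32 had intervals above 1, Swap70 had an interval below 1, and those of Capg and Ikzf2 included 1. None of the 7 was 1.5-fold apart, in either direction, against a background of 4.82% of all 10462 genes at that level. That share comes mostly from genes of low level, and all of the 7 but Ikzf2 lay above 10 CPM. Of 7215 genes at a mean of 10 CPM or more, only 23 were 1.5-fold higher and 17 lower. Members of that level would thus rarely pass. Intervals lay above 1 for 4 of the 7, against a background of 16.2% of all 10462 genes, and below 1 for 1 of the 7, against 19.5%. The median log2 ratio over the 7 was 0.17, and over all 10462 genes it was -0.01. These members were chosen with earlier results of the same libraries known, so the counts describe them and support nothing further. Fewer cells that express a gene and less of its RNA per cell cannot be told apart in bulk RNA.

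**Figure D1:**
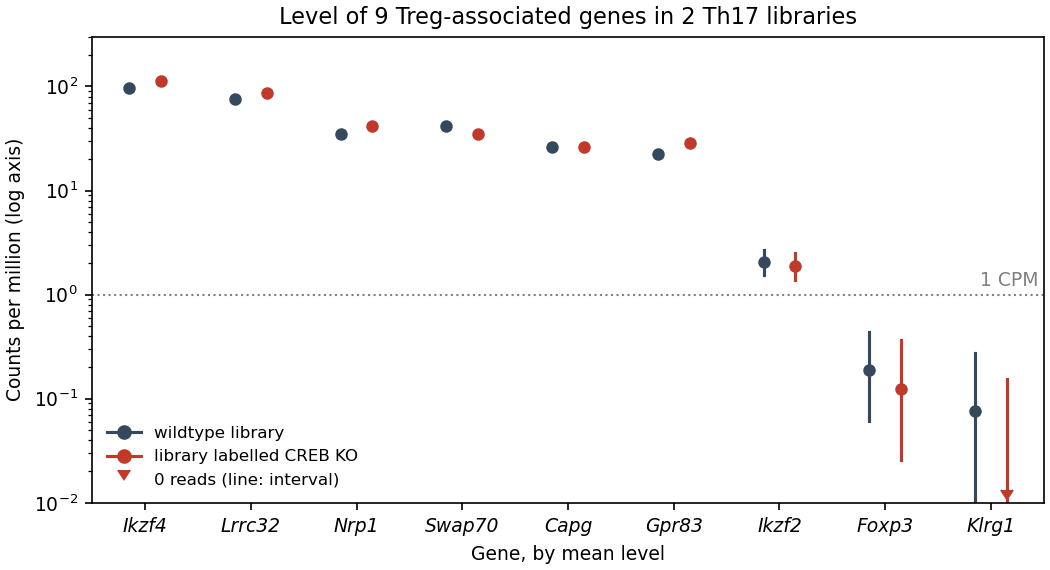
Level of each gene in the 2 libraries, in CPM on a log axis, with exact Poisson 95% intervals as vertical lines and the 1 CPM limit dotted. The 6 genes on the left lie above 20 CPM in both libraries, Ikzf2 lies near 2 CPM, and Foxp3 and Klrg1 lie below 1 CPM with wide intervals.

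Because the comparison asks which genes depend on CREB, the sequence before the start of members was searched for the cyclic AMP response element (CRE), the DNA site that CREB binds. RefSeq promoter sequences (GRCm38.p6) matched 5 of the 9 genes: Foxp3 (with 2 start sites), Nrp1, Gpr83, Capg and Swap70. The 250 bases before each start were searched on both strands for the full site TGACGTCA and the core site TGACG, which reads CGTCA when it lies on the other strand and is contained in the full site. The windows are printed for the gene with the highest ratio (Gpr83), one with a ratio close to 1 (Capg) and the expressed gene with the lowest ratio (Swap70), each 5′ to 3′ on the plus strand with any core site in capitals. They lie at chr9:14859960-14860209, chr6:72549397-72549646 and chr7:110221453-110221702, in that order.

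Gpr83: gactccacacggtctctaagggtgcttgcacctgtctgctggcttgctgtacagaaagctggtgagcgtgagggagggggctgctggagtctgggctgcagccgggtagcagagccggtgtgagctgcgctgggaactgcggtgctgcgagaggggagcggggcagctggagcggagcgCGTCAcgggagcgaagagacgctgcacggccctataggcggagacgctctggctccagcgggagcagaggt

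Capg: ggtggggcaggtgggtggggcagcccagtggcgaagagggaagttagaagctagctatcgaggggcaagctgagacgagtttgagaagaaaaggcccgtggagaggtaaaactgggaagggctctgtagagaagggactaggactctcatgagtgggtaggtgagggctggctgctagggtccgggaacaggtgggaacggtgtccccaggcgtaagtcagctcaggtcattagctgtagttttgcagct

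Swap70: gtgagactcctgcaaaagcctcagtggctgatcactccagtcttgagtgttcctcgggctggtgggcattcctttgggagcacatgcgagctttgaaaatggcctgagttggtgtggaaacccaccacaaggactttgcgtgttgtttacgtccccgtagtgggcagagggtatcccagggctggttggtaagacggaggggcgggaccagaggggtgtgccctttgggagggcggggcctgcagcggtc

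Gpr83 held 1 core site, which begins 71 bases before its start and lies on the minus strand as CGTCA. The windows of the other 4 genes held none, and none of the 5 genes held the full site. Among all 32851 windows of the same length, 17.8% held the core site and 1.55% the full site. Counted by gene, as for the members, these shares were 19.8% and 1.77% of 27025 genes. A match is a description of letters in the window and not a measured binding site. Each window lies before a RefSeq start, but the gene spans given below come from GENCODE M21. The windows of Foxp3, Nrp1 and Capg lie inside those spans, so they may hold intronic or exonic sequence. For these genes the sequence before the first base of the span was not searched. Distal elements and the rest of the introns were not analysed here.

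Among the transcription factor genes, Ikzf4 was well expressed, Ikzf2 was low and Foxp3 was close to 0. Ikzf4 (chromosome 10, 128630843 to 128645991, GENCODE M21 on GRCm38) encodes Eos, a zinc finger protein of the Ikaros family that acts with FOXP3 in gene repression. It had 2688 reads in the KO-labelled library and 2577 in the wildtype library. After scaling these are 112 CPM (108 to 116, exact Poisson) and 97.4 CPM (93.7 to 101). The ratio was 1.15 (1.09 to 1.21). Among genes with 2000 or more reads in both libraries together, where Ikzf4 lies, 5% had a ratio above 1.14 and 20.4% had an interval above 1.

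Ikzf2 (chromosome 1, 69531214 to 69687245) encodes Helios, another Ikaros family protein, which is common in Treg cells that form in the thymus. It had 45 reads in the KO-labelled library against 54 in the wildtype library, or 1.87 and 2.04 CPM. The ratio was 0.919 (0.604 to 1.39), so its reads are compatible with anything from 1.65-fold lower to 1.39-fold higher, and no direction was detectable at this depth. Per kilobase of exon, Ikzf4 was 116-fold above Ikzf2 in the KO-labelled library (86.2 to 159) and 92.4-fold above it in the wildtype library (70.6 to 123). The Ikaros family relatives Ikzf1, Ikzf3 and Ikzf5 lay between these levels. Ikzf3, which encodes Aiolos, had 2298 and 2402 reads and a ratio of 1.05 (0.995 to 1.12). Ikzf5 had 824 and 1023 reads and was 1.13-fold lower in the KO-labelled library (1.03 to 1.24). Ikzf1 itself had 337 and 420 reads and a ratio of 0.885 (0.764 to 1.02).

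Foxp3 (chromosome X, 7573644 to 7595245) is marked as a gene of few reads, which here means fewer than 20 in both libraries together. It had 3 reads in the KO-labelled library and 5 in the wildtype library. These are 0.125 CPM (0.0258 to 0.365) and 0.189 CPM (0.0614 to 0.441). The ratio of 0.693 had an interval from 0.103 to 3.40, so the reads give no direction.

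The low count of Foxp3 sits beside low counts of genes that T cells use widely and that have several annotated transcripts. Ptprc, which encodes the leukocyte surface protein CD45, had 75 and 81 reads with 3 curated RefSeq transcripts, the same number as Foxp3. Dnmt1, the maintenance DNA methyltransferase gene, had 22 and 24 reads with 5 transcripts. Runx1, Uhrf1 and Ctbp1, with 4, 4 and 5 transcripts, have no row in either library and were taken as 0 reads. Ptprc was picked after its values were seen. Protein-coding genes with any read had a median of 16.1 CPM where 1 curated transcript is annotated, 6.62 CPM with 2 and 4.12 CPM with 3 or more. The other measures did not follow that order: 29.9%, 28.9% and 32.3% of the genes with reads lay under 1 CPM in these classes, and 39.2%, 25.4% and 23.5% of all genes in them had no reads. Genes with as many transcripts as Foxp3 or more can also be well counted, as were Ikzf4 and Nrp1 (3 each), Capg (4) and Ets1 (6, with 1937 and 2075 reads). In addition, 31.5% of the 4577 exon bases of Foxp3 overlap an exon of another annotated gene, against 4.88% for Swap70, 1.24% for Ikzf2 and under 1% for the other 6. The genes that overlap Foxp3 are Ccdc22, Ppp1r3f and Gm36995 on the opposite strand and Flicr on the same strand. Ccdc22 had 836 and 932 reads, Ppp1r3f 142 and 156, and Flicr 0 in both. Whether the counting left out reads of Foxp3 was not tested, so its 8 reads do not measure how little of its RNA was present.

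The FOXP relatives were measured at low counts as well. Foxp1, Foxp4 and Foxp2 have 4, 3 and 3 curated transcripts, and whether the counting left out their reads was not tested. Foxp1, which encodes a forkhead factor of T cell quiescence, had 133 and 92 reads and a ratio of 1.59 (1.21 to 2.10). Of genes with 200 to under 2000 summed reads, 1.67% were 1.5-fold or more higher. Foxp1 lies at the lower edge of that band, where ratios spread more widely than among its deeper genes. Among genes with 20 to under 200 summed reads, 90% of ratios were between 0.533 and 2.06. Foxp4 had 78 and 75 reads and a ratio of 1.15 (0.824 to 1.60), and Foxp2 had 0 reads in both libraries. Foxp1 was the only one of the 5 expressed IKZF and FOXP relatives past 1.5-fold, against a background of 4.82% of all expressed genes.

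The surface receptor genes fell into a group of 3 with many reads and similar ratios, and Klrg1, which was near 0. Lrrc32 (chromosome 7, 98489283 to 98502181) encodes GARP, the protein that holds latent TGF-beta on the surface of activated Treg cells. It had 2054 reads in the KO-labelled library and 2014 in the wildtype library, or 85.6 CPM (81.9 to 89.4) and 76.1 CPM (72.8 to 79.5). The ratio was 1.12 (1.06 to 1.20), and the ratios of 90% of genes with 2000 or more summed reads lay between 0.871 and 1.14. Lrrc32 is inside that range and Ikzf4 is just above it.

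Nrp1 (chromosome 8, 128358604 to 128503363) encodes neuropilin-1, a coreceptor for semaphorins and VEGF that marks most thymus-derived Treg cells in mice. It had 991 reads in the KO-labelled library against 932, or 41.3 CPM (38.8 to 43.9) and 35.2 CPM (33.0 to 37.6). The ratio was 1.17 (1.07 to 1.28). Gpr83 (chromosome 9, 14860210 to 14870789) encodes a G protein-coupled receptor whose RNA is enriched in Treg cells. It had 683 against 589 reads, or 28.5 CPM (26.4 to 30.7) and 22.3 CPM (20.5 to 24.1). The ratio of 1.28 (1.14 to 1.43) was the highest of the 8 members with a ratio. Both genes lie among those with 200 to under 2000 summed reads, where 90% of ratios were between 0.782 and 1.29 and 13.8% of intervals lay above 1. The ratio of Gpr83 is just inside the upper end of that range.

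Klrg1 (chromosome 6, 122270596 to 122282882) encodes an inhibitory lectin-like receptor of terminally differentiated T cells and NK cells that binds cadherins, and some Treg cells carry it. It had 0 reads in the KO-labelled library and 2 in the wildtype library, and is marked as a gene of few reads. The 0 count allows up to 3.69 reads (0.154 CPM, exact Poisson), and the 2 reads are 0.0756 CPM (0.00916 to 0.273). Both counts are at or under 3 reads, so no ratio is given. Unlike Foxp3, Klrg1 has 1 curated transcript and shares no exon with another gene. Of the cadherin genes that encode its ligands, Cdh1 had 8 reads in the KO-labelled library and 0 in the wildtype library, Cdh2 0 and 2, and Cdh4 2 and 0. Inpp5d, the gene of a lipid phosphatase that KLRG1 recruits, had 36 and 44 reads.

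**Figure D2:**
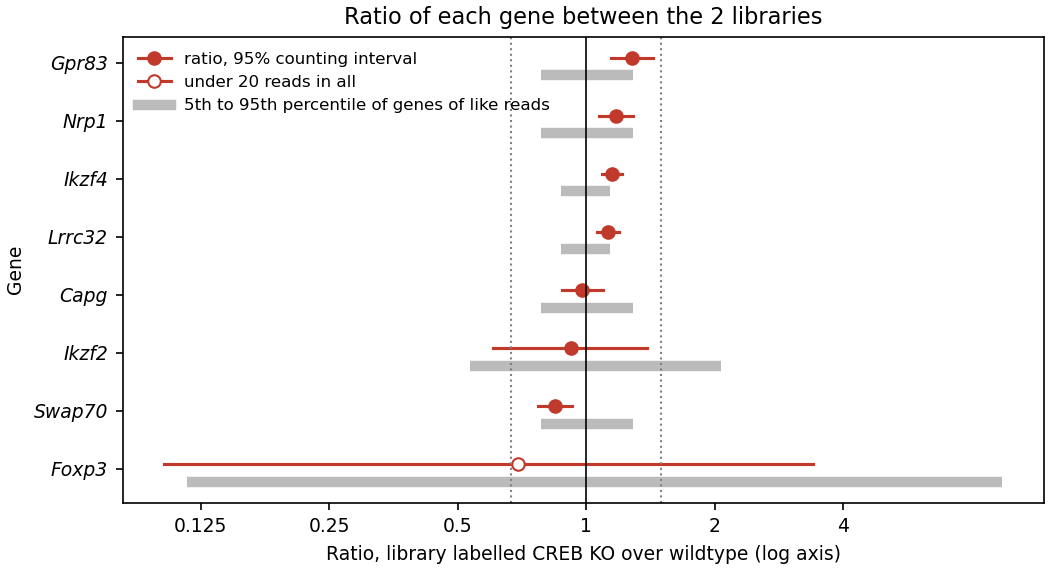
Ratio of each gene in the KO-labelled library over wildtype on a log axis, with its 95% counting interval, for the 8 genes with a ratio. Grey bars span the 5th to 95th percentile of all genes with a similar number of reads and dotted lines mark 1.5-fold. Gpr83, Nrp1, Ikzf4 and Lrrc32 have intervals above 1, Swap70 below 1, and the open point of Foxp3 rests on 8 reads.

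The last 2 members act on the actin cytoskeleton, and their ratios were at or below 1. Capg (chromosome 6, 72544391 to 72562983) encodes a protein of the gelsolin family that caps actin filaments. It had 622 reads in the KO-labelled library and 700 in the wildtype library, or 25.9 CPM (23.9 to 28.0) and 26.5 CPM (24.5 to 28.5). The ratio was 0.979 (0.878 to 1.09), and no difference was detectable at this depth. Swap70 (chromosome 7, 110221711 to 110283506) encodes a lipid-binding protein that signals to RAC GTPases and was first described in B cells. It had 840 against 1096 reads, or 35.0 CPM (32.7 to 37.4) and 41.4 CPM (39.0 to 44.0). It was 1.18-fold lower in the KO-labelled library (1.08 to 1.30), the only member whose interval lay below 1, against a background of 14.9% among genes with 200 to under 2000 summed reads. Its ratio of 0.845 lies inside the range that holds 90% of those genes.

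**Figure D3:**
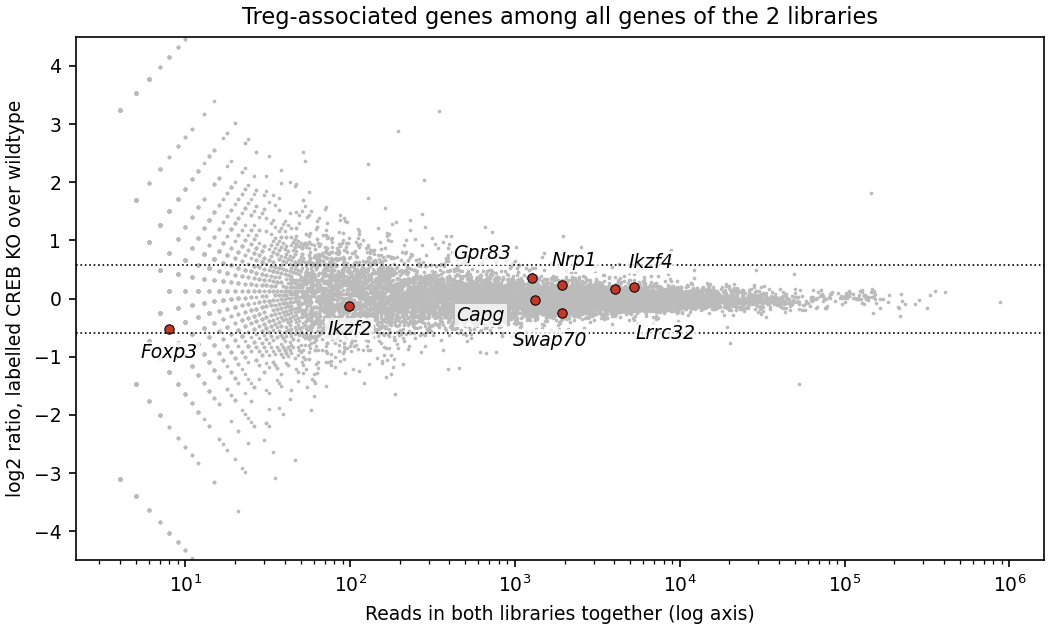
Each grey point is 1 of 13655 genes with more than 3 reads in at least 1 library, placed by its reads in both libraries together (log axis) and its log2 ratio, with 7 genes beyond the vertical axis. The 8 labelled members lie inside the dotted 1.5-fold lines, and the cloud widens towards few reads, where Foxp3 and Ikzf2 lie.

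Levels of different genes were compared per kilobase of exon. In the KO-labelled library Ikzf4 and Lrrc32 led at 18.7 and 18.3 CPM per kb with overlapping counting intervals, followed by Capg at 10.2, Gpr83 at 5.59, Swap70 at 4.33 and Nrp1 at 4.22. Swap70 and Nrp1 did not differ beyond counting error there. In the wildtype library Ikzf4 and Lrrc32 were again level, both at 16.2, and Capg followed at 10.5. Swap70 at 5.12 was above Gpr83 at 4.37 in that library, and Nrp1 was at 3.60. Ikzf2, at 0.161 and 0.176, was far below them, and the intervals of Foxp3 and Klrg1 overlapped in both libraries. The order depends on the length used, and the longest coding transcript was tried instead of all exons. Counting intervals were not computed on that length, so close values there are not ranked. Swap70 was then at 8.69 CPM per kb and Gpr83 at 7.94 in the KO-labelled library, which is close. In wildtype Swap70 was above Gpr83, at 10.3 against 6.21. On that length Capg, at 18.5 and 18.9, was level with Lrrc32 in the KO-labelled library (18.7) and above it in wildtype (16.6). Nrp1, at 11.5 and 9.79, was then above Gpr83 in both libraries. Nrp1 was also above Swap70 in the KO-labelled library, while in wildtype the 2 were close. Among 9499 expressed protein-coding genes, 71.0% had a lower level per kb of exon than Ikzf4, 70.7% than Lrrc32 and 38.4% than Nrp1. These shares were not computed on the longest transcript.

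The partners and relatives of the receptors and cytoskeletal proteins gave further context. Of the plexin genes, whose proteins signal together with neuropilins, Plxna1 had 2190 and 1857 reads and a ratio of 1.30 (1.22 to 1.38). Plxna3 had 916 and 774 reads and the same ratio of 1.30 (1.18 to 1.44). Plxna2 and Plxna4 had 2 to 5 reads in all, and Nrp2 had 9 and 11 reads. Per kb, Nrp1 was 133-fold above it in the KO-labelled library (69.9 to 292) and 103-fold in the wildtype library (57.0 to 206). Nrp2 has 6 curated transcripts against 3 for Nrp1, and whether the counting left out its reads was not tested. The ligand gene Sema4a had 26 and 38 reads and a ratio of 0.757 (0.440 to 1.27).

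Tgfb1, the gene of the cytokine that GARP holds, had 14578 and 16418 reads and a ratio of 0.979 (0.957 to 1.001), and per kb it was well above Lrrc32. Nrros, which encodes a GARP-like carrier of latent TGF-beta in myeloid cells, had 498 and 571 reads and a ratio of 0.961 (0.851 to 1.09). Per kb, Lrrc32 was 3.67-fold above Nrros in the KO-labelled library (3.33 to 4.06) and 3.14-fold in the wildtype library (2.86 to 3.45). Itgav, the integrin chain that takes part in TGF-beta activation, was 1.12-fold higher (1.05 to 1.19), and Tgfb3 was 1.33-fold lower (1.09 to 1.63) on 167 and 245 reads. Furin, which encodes the protease that cuts the TGF-beta precursor, had 219 and 230 reads and a ratio of 1.05 (0.868 to 1.27). The integrin gene Itgb8 had 7 and 2 reads. Of the 5 expressed genes of this list 0 were 1.5-fold apart, near the background of 4.82%.

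Def6, the closest relative of Swap70, had 8060 and 8036 reads and was 1.11-fold higher in the KO-labelled library (1.07 to 1.14), against the lower Swap70. Per kb it was 29.1-fold above Swap70 there (27.1 to 31.2) and 22.2-fold above it in the wildtype library (20.8 to 23.7). The GTPase gene Rac1 was 1.06-fold lower (1.04 to 1.09). Of the gelsolin family, Flii had 7305 and 7932 reads and a ratio of 1.02 (0.983 to 1.05), and Svil 1450 and 1558 reads and a ratio of 1.03 (0.954 to 1.10), both close to 1 like Capg. Gsn, the gelsolin gene, had 17 and 29 reads, and Avil 20 and 23.

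**Figure D4:**
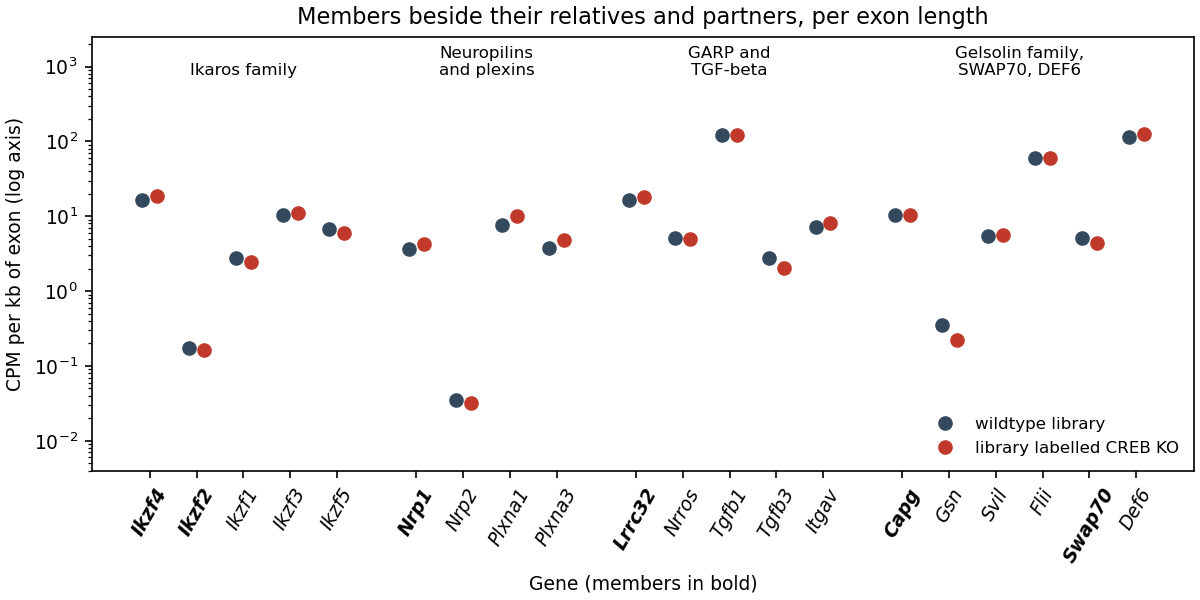
Level per kilobase of exon of 6 members (bold) and their relatives and partners in the 2 libraries, in CPM per kb on a log axis. Ikzf4 and Lrrc32 lie near 17, Ikzf2 and Nrp2 lie far below their relatives Ikzf4 and Nrp1, and Def6 lies far above Swap70. Whether reads were lost for genes with several transcripts, such as Nrp2, was not tested.

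Other genes of the Treg program, from a list of 22 surface and effector genes, also had mostly small ratios. Of the 18 expressed ones, 0 were 1.5-fold or more higher (background 2.98%), 1 was lower (background 1.84%) and 17 were neither, with a median log2 ratio of 0.08. Intervals were above 1 for 8 of them (background 16.2%) and below 1 for 4 (background 19.5%). The highest ratios were those of the inhibitory receptor gene Tigit at 1.29 (1.03 to 1.62), the signalling inhibitor gene Socs2 at 1.29 (1.18 to 1.40), and Tnfrsf18 and Tnfrsf4, the genes of the costimulatory receptors GITR and OX40, at 1.21 (1.15 to 1.26) and 1.17 (1.14 to 1.20). Of the ectonucleotidase genes, which encode enzymes of adenosine formation, Entpd1 had 48 and 81 reads and was 1.53-fold lower (1.06 to 2.24), and Nt5e was 1.13-fold lower (1.05 to 1.20). Icos, which encodes a costimulatory receptor, was 1.16-fold lower (1.14 to 1.19), and the cytokine gene Il10 had 125 and 170 reads and a ratio of 0.811 (0.638 to 1.03). Il1rl1, which encodes the IL-33 receptor, had 10 and 26 reads and was 2.30-fold lower (1.10 to 5.48), below 1 CPM. The list's most abundant gene was Il2ra, at 70652 and 76132 reads, which activated T cells of any kind express. Ctla4, an inhibitory receptor gene that they share with Treg cells, had 2688 and 2840 reads.

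Of 23 genes of factors that act at the Foxp3 locus 18 were expressed, 12 with a ratio above 1 and 6 below, where all expressed genes had 5037 above and 5425 below. Of the 18, 0 reached 1.5-fold, near the background of 4.82%. Their median log2 ratio was 0.07. Nfatc2, a factor downstream of T cell receptor calcium signals, had the highest ratio at 1.35 (1.13 to 1.61), followed by Tet3, a DNA demethylation enzyme gene, at 1.17 (1.11 to 1.23), Foxo3 at 1.16 (1.05 to 1.29) and Stat5b at 1.14 (0.949 to 1.37). The nuclear receptor gene Nr4a3 was 1.23-fold lower (1.12 to 1.34), Foxo1 1.06-fold lower (1.02 to 1.10) and Nr4a1 1.04-fold lower (1.01 to 1.07), and Gata3 had a ratio of 0.973 (0.823 to 1.15). Nr4a2, below a mean of 1 CPM, had 16 and 33 reads and was 1.85-fold lower (1.001 to 3.64). Creb1 is also in this list and below that mean, and was 2.08-fold higher (1.04 to 4.51) on 25 and 13 reads.

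Several members are also expressed by other cells: Klrg1 by NK cells, Swap70 by B cells, Capg by myeloid cells and Nrp1 by dendritic and endothelial cells. The 5 B cell markers summed to 2.21 CPM in the KO-labelled library and 2.04 in the wildtype library, with Ms4a1 and Pax5 at 0. The 5 NK cell markers summed to 12.5 and 16.4 CPM, nearly all from Klrd1, which T cells can also express, with Ncr1, Klrb1c and Klra8 at 0. The 10 myeloid and dendritic cell markers summed to 10.6 and 11.6 CPM, mostly from Cd68, with Lyz2, Itgam and Siglech at 0. The 3 endothelial markers summed to 2.25 and 2.76 CPM. Of the CD8 T cell markers, Cd8b1 had 234 and 237 reads and Cd8a had 0 in both. A 0 is not a firm absence here, since it stands for a missing row and widely used genes had no row either. The part of other cells in the reads of the members was not tested.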

How the data were processed

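Messenger RNA was sequenced from 2 libraries of cultured Th17 cells, 1 per genotype. The deposited files hold whole-number counts of uniquely assigned reads per gene symbol, per the file headers, and the authors applied no normalization to them. Per the submitters' processing notes, HTSeq, bcl2fastq and the build mm10 were used. No aligner, annotation, strand setting or rule for reads shared by features is stated. Counts sum to the total in each header.

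Library sizes were scaled by trimmed mean of M-values factors (edgeR 4.0.16, R 4.3.3), which were 1.003 and 0.997. Ratios were formed with a prior count of 0.5, and genes with 3 reads or fewer in both libraries got none. With 1 library per group, edgeR could fit no quasi-likelihood test. Gene spans and exon lengths came from GENCODE M21, and curated transcripts (NM accessions) from RefSeq. Python 3.11.15 with scipy 1.17.1 was used. The interval code was run on simulated Poisson counts, which hold no variation between cultures and no PCR copies. That run checks the computation only.

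The members and lists were chosen with earlier results of these data known. Named were all members, Creb1, relatives and partners with 20 reads or more, and, of the Treg and Foxp3 locus lists, the 4 highest and 4 lowest ratios and any past 1.5-fold with 20 reads. Some genes of fewer reads are named to account for a family, and were chosen after their values were seen, as were Ccdc22, Ppp1r3f and Flicr. No genes were named for likeness of pattern, because 2 libraries give each gene a single ratio. Alternatives were scaling by total counts, DESeq2 1.42.0 size factors or upper quartiles, thinning of the deeper library, a prior count of 5, no filter on low counts and a mean of 10 CPM.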

Additional observations from a re-analysis of the deposited data

How the results depend on the processing

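The 8 ratios were recomputed under 5 alternatives (scaling by total counts, DESeq2 size factors, upper quartiles, a prior count of 5 and thinning of the deeper library), and all 40 values stayed inside the main counting interval and on the same side of 1. The factor of the KO-labelled library was between 1 and 1.003 under every scaling, so other scaling could hardly move a ratio. None of the alternatives adds a library, so they do not measure how reproducible a ratio is. Gpr83 ranged from 1.28 to 1.29, Swap70 from 0.838 to 0.849 and Foxp3, on its few reads, from 0.633 to 0.835. Under these and both filter alternatives, 0 of the members that passed the CPM filter in use were 1.5-fold apart. Of the same members, 5 had an interval that excludes 1. Foxp3, under 1 CPM, was not in that count with the deeper library thinned, where it was 1.58-fold lower on its few reads. The number of all genes 1.5-fold apart follows the filter: 312 were higher and 192 lower at a mean of 1 CPM, 1300 and 1038 without a filter, and 23 and 17 at a mean of 10 CPM. Other scaling moved the median of all genes by less than 0.1 on the log2 scale. No paired analysis was possible because each group has 1 library and the labels give no replicate numbers. Depth limits Ikzf2, Foxp3 and Klrg1 most, and ratios near 1.1 to 1.3 have no replicate check.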
